A study of Peromyscus maniculatus and Peromyscus polionotus and Peromyscus maniculatus x Peromyscus polionotus with 18 samples.

Results

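Whole brains of P. polionotus and P. maniculatus males killed after a control trial were compared, with 3 libraries a side. These are 6 of the 18 libraries of the series, and the comparison covers the 14366 of 20731 named genes whose abundance averaged at least 1 TPM over the 12 libraries of the parental species. TPM is a transcript abundance corrected for transcript length and scaled to a common library total. The polionotus control group and the maniculatus control group share sex (male), tissue (whole brain), age (50 to 80 days) and training (2 earlier trials in the test enclosures). Other libraries read out were those of polionotus and maniculatus males killed after a burrowing trial, with 3 libraries each. F1 hybrids of both species killed after a control trial, 3 animals, were read out too. F1 hybrids killed after a burrowing trial, 3 animals, entered the allele fit only. The labels name no transgene, targeted allele or drug in any group. The sources used here do not say what an animal did in a control trial. Each library was treated as 1 animal.

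Oldfield mice (P. polionotus) dig long burrows with an escape tunnel, whereas deer mice (P. maniculatus) dig short simple ones, and the habit is inherited. Differences in brain transcript levels between such sister species can come from regulatory sequence at the gene itself, from factors acting on both alleles, or from different proportions of cell types. In an F1 hybrid both alleles sit in the same nucleus, so an unequal output of the alleles reflects sequence linked to the gene or the parent it came from. Hox genes, which are laid out along the chromosome in the order in which they act along the body, stay on in the adult hindbrain and spinal cord and are silent in the forebrain, and genes with higher paralog numbers are expressed further back.

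The Hox content of the polionotus control libraries was unequal. Summed over the 38 Hox genes in the table, it was 43.7, 8.15 and 23.5 TPM in polionotus control libraries 1, 2 and 3, against 53.0, 48.2 and 63.3 TPM in the maniculatus control libraries. All 3 polionotus control libraries lay below all 3 maniculatus ones, library 1 closest to them and library 2 far below. In the burrowing trial the sums were 54.4, 56.2 and 63.2 TPM in polionotus brains, against 49.5, 40.3 and 58.3 TPM in maniculatus brains, and the species overlapped. The shortfall was steeper for the genes that act further back. Genes of paralog groups 5 to 8 summed to 17.4, 0.577 and 4.54 TPM in the polionotus control libraries, against 22.4, 17.7 and 22.3 TPM in the maniculatus control libraries. Those of groups 1 to 4, which reach furthest forward in the hindbrain, summed to 26.2, 7.24 and 18.7 TPM in the polionotus control libraries, against 30.3, 30.4 and 40.7 TPM in the maniculatus control libraries. Groups 5 to 8 made up 39.8%, 7.08% and 19.3% of the Hox sum in polionotus control libraries 1, 2 and 3, against 35.2% to 42.2% in the maniculatus control libraries. Polionotus control library 1 was inside that range and libraries 2 and 3 were below it. The number of Hox genes at 1 TPM or more was 14, 3 and 10 in the polionotus control libraries, against 16, 13 and 16 in the maniculatus control libraries.

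**Figure D1:**
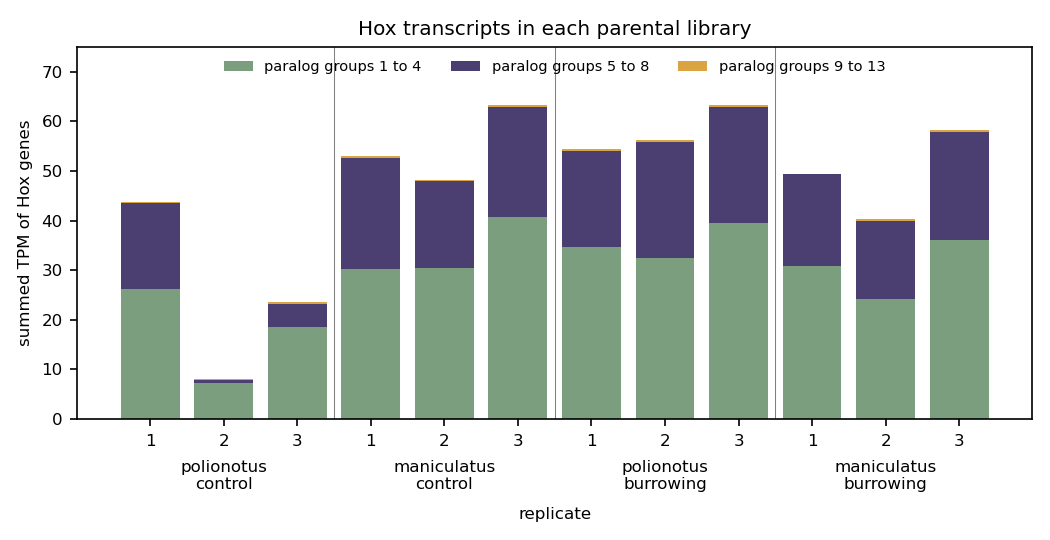
Summed TPM of the 38 Hox genes in each of the 12 parental libraries (bars, split by paralog group), ordered by trial and species. Polionotus control libraries 2 (8.15 TPM) and 3 (23.5 TPM) stand below the other 10, and lose groups 5 to 8 more than groups 1 to 4.

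Single Hox genes followed the sums. Hoxb8, the gene of the highest paralog number among those tested, had 3.75 TPM in polionotus control library 1 and was listed at 0 in libraries 2 and 3, against 5.15, 2.75 and 3.65 TPM in the maniculatus control libraries. Hoxc5 had 1.98 TPM, was listed at 0 and had 1.37 TPM in polionotus control libraries 1, 2 and 3, against 3.24, 2.95 and 3.07 TPM in the maniculatus control libraries. Hoxc4, the most abundant member of its paralog group, had 6.74, 1.59 and 3.17 TPM in polionotus control brains, against 6.44, 7.70 and 7.52 TPM in maniculatus control brains. For Hoxb8 and Hoxc4 the groups overlapped through polionotus library 1, whose values lay within the maniculatus range. Hoxa2, the gene whose domain reaches furthest forward, had 3.20, 2.20 and 4.38 TPM in polionotus control brains, against 2.85, 3.05 and 6.05 TPM in maniculatus control brains, and did not pass the test (limma adjusted p = 0.544).

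A moderated test across genes (limma, on log2 of TPM plus 1, a scale that understates differences of genes with low values) called 5696 genes different between the species in the control trial at an adjusted p below 0.05. That is 39.6% of those tested, 3843 (26.8%) higher in polionotus and 1853 (12.9%) lower. Against this background 10 of the 14 tested Hox genes were lower in polionotus control brains and 0 were higher. The count was 4, 3 and 2 without maniculatus control library 1, 2 and 3, it was 13, 3 and 5 without polionotus control library 1, 2 and 3, and it was 0 by limma without both polionotus control libraries 2 and 3 (0 also at an unadjusted p below 0.05). In the burrowing trial 1 Hox gene (Hoxa2) was called, higher in polionotus. With only the control-trial libraries fitted, Hoxa5, Hoxb2, Hoxb3, Hoxb4, Hoxb5, Hoxb8, Hoxc4 and Hoxc5 lost their control-trial calls (limma adjusted p of 0.0572 to 0.111). Genes of hindbrain and spinal cord neurons other than Hox had 0 higher and 4 lower members of 23 tested, among them Lbx1, a transcription factor of dorsal horn and hindbrain sensory neurons. Lbx1 had 4.48, 2.395 and 4.67 TPM in polionotus control brains, against 6.92, 8.33 and 7.74 TPM in maniculatus control brains (log2 difference -0.87, SE 0.23, adjusted p = 0.0131, and 0.15 without both low-Hox libraries). Limma called no member of that list without both low-Hox libraries or in the burrowing trial (0 of 23 each, and 1 higher in each at an unadjusted p below 0.05), 1 was called without maniculatus control library 1 or polionotus control library 2, 2 were called without maniculatus control library 3, and 5 without polionotus control library 1. In whole-brain RNA, fewer cells of a type and less RNA per cell cannot be told apart.

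Other counts also changed when the low-Hox libraries were left out, and the part of Hox content in that was not tested. Without polionotus control libraries 2 and 3, which leaves 1 polionotus library whose spread is assumed to be that of the other groups, 1664 genes (11.6%) were higher in polionotus and 1069 (7.44%) lower. That alternative removes the low-Hox libraries and most of the sample size together. Counts for it are given beside the lists, with those of the burrowing trial, where 2876 genes (20.02%) were higher and 2025 (14.1%) lower in polionotus. List counts are to be read against the shares over all genes under the same setting, and a count near its share is no result about the list. At an unadjusted p below 0.05, 4640 of the 14366 genes were higher and 2335 lower in the control trial. In the burrowing trial 3636 were higher and 2689 lower at that threshold. Lists and members were chosen with earlier results of these data known, so the counts are descriptions. The split between higher and lower genes also depended on scaling, because the median gene was 0.08 higher in polionotus on the log2 scale as deposited and 0.00 after median scaling. A single gene, Mtrnr2l6, held 5.16%, 3.13% and 3.93% of the TPM in polionotus control libraries 1, 2 and 3. It held 8.15%, 8.23% and 9.75% in the maniculatus control libraries. With TPM rescaled without it the median gene was 0.025 higher in polionotus, and of 14511 genes 2968 were higher and 2358 lower. With median scaling 2886 genes (20.1%) were higher in polionotus and 2776 (19.3%) lower, and with quantile normalization 2827 (19.7%) and 2852 (19.9%). No called gene chosen by the naming rule changed direction under either scaling. Genes whose 3 polionotus values all exceeded all 3 maniculatus values numbered 4761 (33.1%), and 2441 (17.0%) had the opposite order. Defining genes of the major brain cell types were abundant in both species. Slc17a7, the vesicular glutamate transporter of cortical neurons, averaged 703 TPM in polionotus control brains and 658 TPM in maniculatus control brains. Cnp, an enzyme of myelin-forming cells, averaged 605 TPM in polionotus control brains and 626 TPM in maniculatus control brains.

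Most differences were small. The median absolute log2 difference among called genes was 0.44, and 58.3% of them differed by less than 0.5. Called genes differing by more than 1 on the log2 scale numbered 421 higher (2.93%) and 295 lower (2.05%) in polionotus. The far ends were near all-or-none. Mep1b, a subunit of the metalloprotease meprin, had 0.428, 0.497 and 0.286 TPM in polionotus control brains, against 615, 580 and 743 TPM in maniculatus control brains (log2 difference -8.84, SE 0.11, adjusted p = 2.39e-12). Actbl2, an actin-like gene, had 573, 917 and 574 TPM in polionotus control brains, against 0.675, 1.13 and 1.28 TPM in maniculatus control brains (log2 difference 8.38, SE 0.20, adjusted p = 7.28e-10). Actin genes are near-identical copies of each other, so the level of Actbl2 is uncertain. Ankrd26, an ankyrin-repeat gene, had 0.629, 0.646 and 0.760 TPM in polionotus control brains, against 40.8, 40.2 and 53.4 TPM in maniculatus control brains. The groups were far apart for all of these genes, and the burrowing-trial difference was of the same sign, at -8.66 for Mep1b, 7.81 for Actbl2 and -4.72 for Ankrd26. The sources used here do not say whether both species were aligned to 1 reference, and the part of sequence or annotation differences in values this extreme was not tested.

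Further down the list stood genes with known functions in the brain or in hormone transport. Iscu, the scaffold on which iron-sulphur clusters are built, had 333, 427 and 337 TPM in polionotus control brains, against 40.7, 36.6 and 42.7 TPM in maniculatus control brains (log2 difference 3.15, SE 0.10, adjusted p = 8.45e-09). Chi3l1, a chitinase-like protein secreted by reactive astrocytes, had 72.9, 79.6 and 67.4 TPM in polionotus control brains, against 11.4, 11.3 and 19.7 TPM in maniculatus control brains (log2 difference 2.34, SE 0.17, adjusted p = 4.01e-06). Shbg, which binds sex steroids, had 1.45, 1.82 and 2.27 TPM in polionotus control brains, against 11.7, 25.8 and 32.5 TPM in maniculatus control brains (log2 difference -2.99, SE 0.36, adjusted p = 0.000123). The maniculatus values of Shbg spread widely, yet the lowest of them was several times the highest polionotus value. Klf13, a zinc-finger transcription factor, had 4.55, 3.48 and 4.54 TPM in polionotus control brains, against 30.1, 29.0 and 30.7 TPM in maniculatus control brains, with no overlap. Ddx11, a DNA helicase, had 5.88, 5.54 and 5.55 TPM in polionotus control brains and 114.6, 34.8 and 137 TPM in maniculatus control brains, of which library 2 was low.

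Among 34 tested neuropeptide precursor genes 6 were higher and 5 lower in polionotus control brains. That is 32.4% called, against 39.6% of all genes. Grp, the gastrin-releasing peptide precursor, had 6.87, 9.07 and 10.4 TPM in polionotus control brains, against 4.49, 4.14 and 3.19 TPM in maniculatus control brains (log2 difference 0.98, SE 0.14, adjusted p = 0.000427). Tac3, which encodes neurokinin B, had 22.2, 23.8 and 19.98 TPM in polionotus control brains, against 8.63, 4.89 and 6.26 TPM in maniculatus control brains (log2 difference 1.62, SE 0.36, adjusted p = 0.00482). Tac4, a tachykinin precursor of the same family, went the other way, with 0.564, 0.252 and 0.512 TPM in polionotus control brains, against 2.10, 1.71 and 2.64 TPM in maniculatus control brains (log2 difference -1.12, SE 0.19, adjusted p = 0.000933). None of these 3 overlapped between the species. Avp, the vasopressin precursor, averaged 28.4 ± 9.75 TPM in polionotus control brains and 83.6 ± 18.6 TPM in maniculatus control brains (SD, n = 3 each), and was the lower-called precursor with the smallest p. Its neighbour peptide Oxt, the oxytocin precursor, had 82.9, 102 and 138 TPM in polionotus control brains, against 160.3, 87.2 and 52.5 TPM in maniculatus control brains, a complete overlap.

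Npb, the neuropeptide B precursor, had 14.6, 29.0 and 17.6 TPM in polionotus control brains, against 10.3, 3.95 and 6.96 TPM in maniculatus control brains. Npvf, the precursor of the RFamide-related peptides that restrain reproductive hormone release, had 4.27, 6.70 and 2.91 TPM in polionotus control brains, against 1.46, 1.58 and 2.78 TPM in maniculatus control brains. Pmch, the melanin-concentrating hormone precursor of the lateral hypothalamus, had 149, 146 and 124 TPM in polionotus control brains, against 214, 178 and 207 TPM in maniculatus control brains. Pdyn, the dynorphin precursor, had 40.4, 50.8 and 44.5 TPM in polionotus control brains, against 31.4, 23.5 and 24.1 TPM in maniculatus control brains. These 4 passed with limma adjusted p of 0.00685, 0.0131, 0.0129 and 0.00357 and did not overlap, but lost the call without both low-Hox libraries (adjusted p of 0.156, 0.0571, 0.184 and 0.107), as did Tac3 (0.0769). Penk, Pomc and Nmb completed the 11. Penk lost its call without maniculatus control library 3 (adjusted p = 0.0868) and without polionotus control library 2 (0.0845) or 3 (0.0651). Pomc lost it without maniculatus control library 1 (0.0699) or 2 (0.102) and without polionotus control library 1 (0.0846) or 3 (0.0645), and Nmb without maniculatus control library 2 (0.0839) or 3 (0.149) and without polionotus control library 1 (0.104) or 2 (0.148). Without both low-Hox libraries 1 precursor was higher and 2 lower, and in the burrowing trial 7 were higher and 4 lower. Without maniculatus control library 2 or polionotus control library 1 the count of lower precursors was 3.

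Neuropeptide receptors had 11 members higher and 3 lower of 35 tested (10 and 7 with median scaling, 5 and 2 without both low-Hox libraries, 11 and 3 in the burrowing trial). Crhr1, the receptor through which corticotropin-releasing hormone acts, had 26.1, 25.7 and 32.6 TPM in polionotus control brains, against 9.36, 8.62 and 11.7 TPM in maniculatus control brains (log2 difference 1.42, SE 0.13, adjusted p = 2.22e-05). Its ligand Crh overlapped, with 27.8, 39.4 and 32.4 TPM in polionotus control brains, against 42.1, 33.4 and 35.8 TPM in maniculatus control brains. Oxtr, the oxytocin receptor, had 7.36, 6.75 and 5.88 TPM in polionotus control brains, against 2.48, 2.39 and 2.49 TPM in maniculatus control brains (log2 difference 1.15, SE 0.11, adjusted p = 3.11e-05). The species were apart for both receptors, while the values of the ligands Crh and Oxt overlapped. Oprl1, the nociceptin receptor, was lower in polionotus control brains, with 166, 136 and 176 TPM, against 237, 222 and 229.5 TPM in maniculatus control brains (log2 difference -0.53, SE 0.08, adjusted p = 0.000535). Crhr1, Oxtr and Oprl1 kept their calls under every alternative run.

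**Figure D2:**
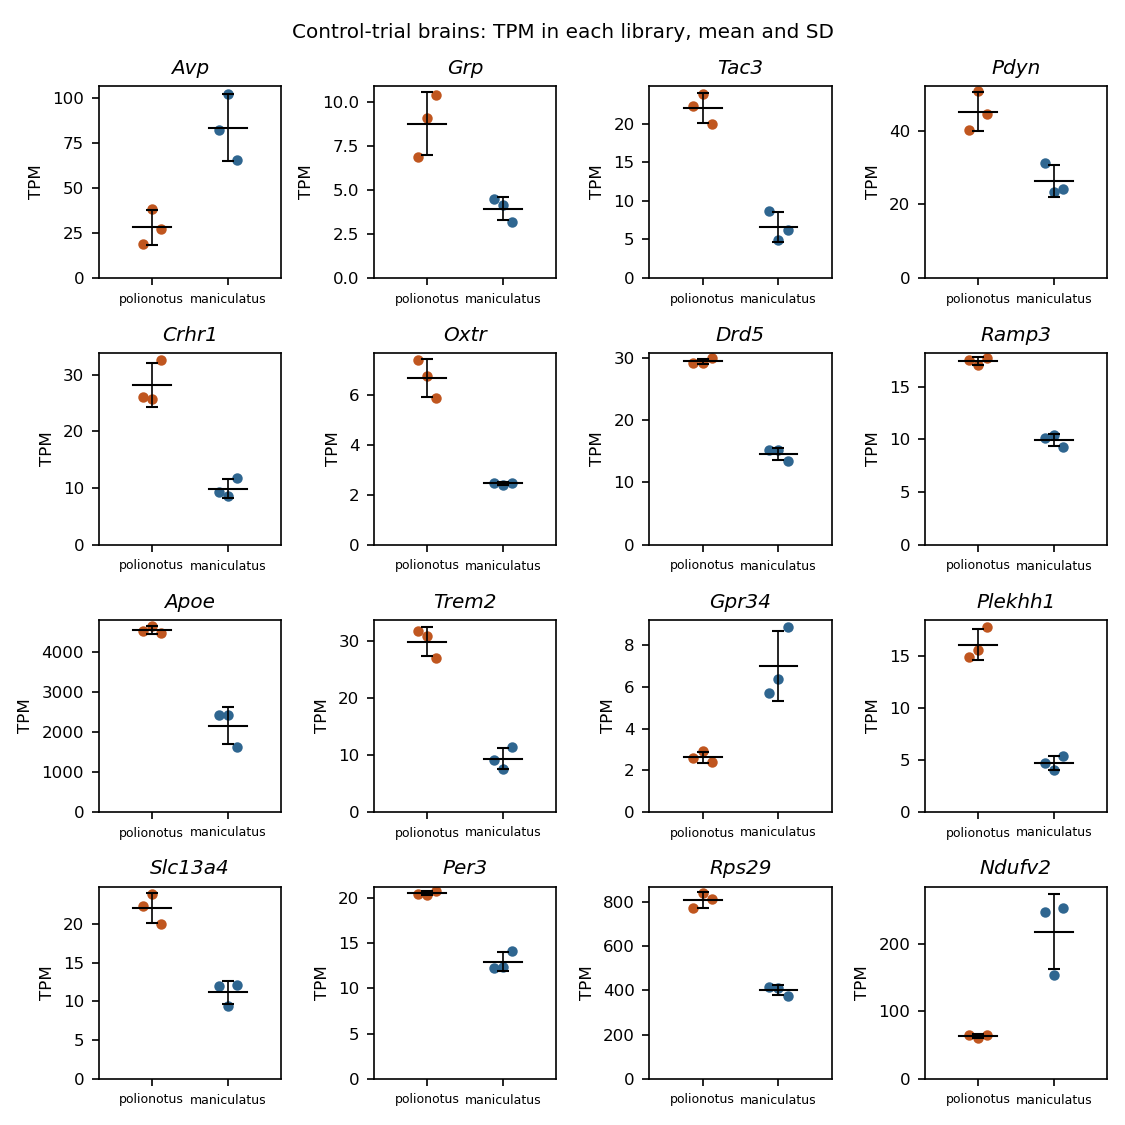
TPM of 16 genes in the 3 polionotus (left) and 3 maniculatus (right) control libraries, 1 point a library, with mean (bar) and SD (whiskers); each axis starts at 0. The points of the species do not overlap in any panel, from Oxtr at 5.88 to 7.36 TPM in polionotus brains and 2.39 to 2.49 TPM in maniculatus brains to Apoe at 4493 to 4663 TPM in polionotus brains and 1631 to 2442 TPM in maniculatus brains.

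Monoamine receptors had 5 higher and 5 lower members of 23 (3 and 6 with median scaling, 3 and 3 without both low-Hox libraries, 4 and 3 in the burrowing trial). The lower count was 3 without any 1 of maniculatus control libraries 1 and 2 and polionotus control libraries 1 and 2. Drd5, a D1-class dopamine receptor, had 29.1, 29.1 and 29.9 TPM in polionotus control brains, against 15.1, 15.1 and 13.5 TPM in maniculatus control brains (log2 difference 0.97, SE 0.07, adjusted p = 3.87e-06). Its relative Drd1 averaged 166 ± 8.81 TPM in polionotus control brains and 91.3 ± 13.1 TPM in maniculatus control brains (SD, n = 3 each). Htr6, a serotonin receptor that raises cyclic AMP, was higher (log2 difference 0.48, SE 0.09, adjusted p = 0.00208), and Htr3a, the serotonin-gated channel, was lower (-0.47, SE 0.10, adjusted p = 0.00473). The list of monoamine synthesis and transport genes also holds the breakdown enzyme Maob (monoamine oxidase B) and the transcription factors Fev and Nr4a2. Of its 10 tested genes only Maob was called. It had 1.45, 1.49 and 1.57 TPM in polionotus control brains, against 0.857, 0.820 and 1.02 TPM in maniculatus control brains (limma adjusted p = 0.00145). The count for that list was 2 higher without maniculatus control library 3, without polionotus control library 2 and in the burrowing trial, and 1 without both low-Hox libraries.

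Genes of striatal output neurons had 15 higher and 1 lower member of 31, with a median log2 difference of 0.26 against 0.08 over all genes (8 and 1 called with median scaling, 4 and 1 without both low-Hox libraries, 13 and 1 in the burrowing trial, and 2 lower without polionotus control library 3). Their summed level was 2828, 3255 and 3078 TPM in polionotus control brains, against 2819, 2574 and 2208 TPM in maniculatus control brains, and was highest in polionotus library 2, the library with the least Hox RNA. The count of higher striatal genes was 10 without any 1 of maniculatus control library 3 and polionotus control libraries 2 and 3. Over all 14366 genes those settings had 3575, 3377 and 3191 higher. The part of the Hox-low libraries in the striatal count was not tested. Over all genes 26.8% were higher and 12.9% lower, and 20.1% and 19.3% with median scaling. Foxp1, a forkhead factor of these neurons, had 6.66, 8.27 and 7.53 TPM in polionotus control brains, against 4.69, 4.33 and 4.13 TPM in maniculatus control brains (log2 difference 0.65, SE 0.08, adjusted p = 0.000171). Gng7, the G-protein gamma subunit that couples striatal receptors to cyclic AMP, had 8.63, 13.4 and 10.02 TPM in polionotus control brains, against 5.36, 4.66 and 4.404 TPM in maniculatus control brains (log2 difference 0.99, SE 0.16, adjusted p = 0.000674). Foxp1 and Gng7 were called without both low-Hox libraries as well.

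Excitatory cortical and hippocampal genes had 7 higher and 1 lower of 28, but 6 and 2 with median scaling, 2 and 2 in the burrowing trial and 2 and 1 without both low-Hox libraries. The lower member was not called without maniculatus control library 2 or polionotus control library 1. Fibcd1, a marker of hippocampal CA1 neurons in mice, had 7.80, 8.67 and 8.84 TPM in polionotus control brains, against 5.74, 5.83 and 5.09 TPM in maniculatus control brains (adjusted p = 0.000302). In the burrowing trial it had 8.07, 7.76 and 7.45 TPM in polionotus brains, against 6.65, 7.57 and 6.89 TPM in maniculatus brains, which overlapped (adjusted p = 0.217). Crym, a thyroid-hormone-binding protein of deep cortical layers, was called in both trials (log2 difference 0.30 in the control trial and 0.39 in the burrowing trial, adjusted p = 0.00363 and 0.000892). Interneuron genes had 2 higher and 3 lower of 24, but 1 and 5 with median scaling, 0 and 1 without both low-Hox libraries and 1 and 2 in the burrowing trial. Their counts were 0 and 2 without maniculatus control library 2, and 1 and 2 without polionotus control library 2. Thalamic genes had 6 higher and 1 lower of 19 and a median log2 difference of 0.28. The counts were 6 and 2 with median scaling, 3 and 1 without maniculatus control library 2, 5 and 0 without polionotus control library 2, 2 and 0 without both low-Hox libraries, and 4 and 1 in the burrowing trial.

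The thalamic gene with the smallest p was Ramp3, which modifies calcitonin-family receptors, with 17.5, 17.0 and 17.7 TPM in polionotus control brains, against 10.1, 10.4 and 9.32 TPM in maniculatus control brains (log2 difference 0.75, SE 0.07, adjusted p = 3.21e-05). Tnnt1, a troponin gene expressed in the mouse thalamus, had 18.9, 26.8 and 9.00 TPM in polionotus control brains, against 5.38, 6.13 and 5.46 TPM in maniculatus control brains. Its polionotus values spread over a wide range without reaching the maniculatus ones (adjusted p = 0.00411, and 0.109 with the Hox level as a covariate). Cerebellar genes had 1 higher and 5 lower of 25, 1 and 2 in the burrowing trial, and 0 and 0 by limma without both low-Hox libraries (1 and 3 at an unadjusted p below 0.05). Ppp1r17, a phosphatase inhibitor of Purkinje cells, had 64.4, 39.3 and 44.1 TPM in polionotus control brains, against 66.9, 84.3 and 90.6 TPM in maniculatus control brains. Its lowest values were those of the Hox-low libraries 2 and 3, and library 1 lay just under the maniculatus range (adjusted p = 0.0097, and 0.327 without both). The count of higher cerebellar genes was 3 without maniculatus control library 3, 2 without polionotus control library 2, and 0 with median scaling and without any 1 of maniculatus control library 2 and polionotus control libraries 1 and 3.

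**Figure D3:**
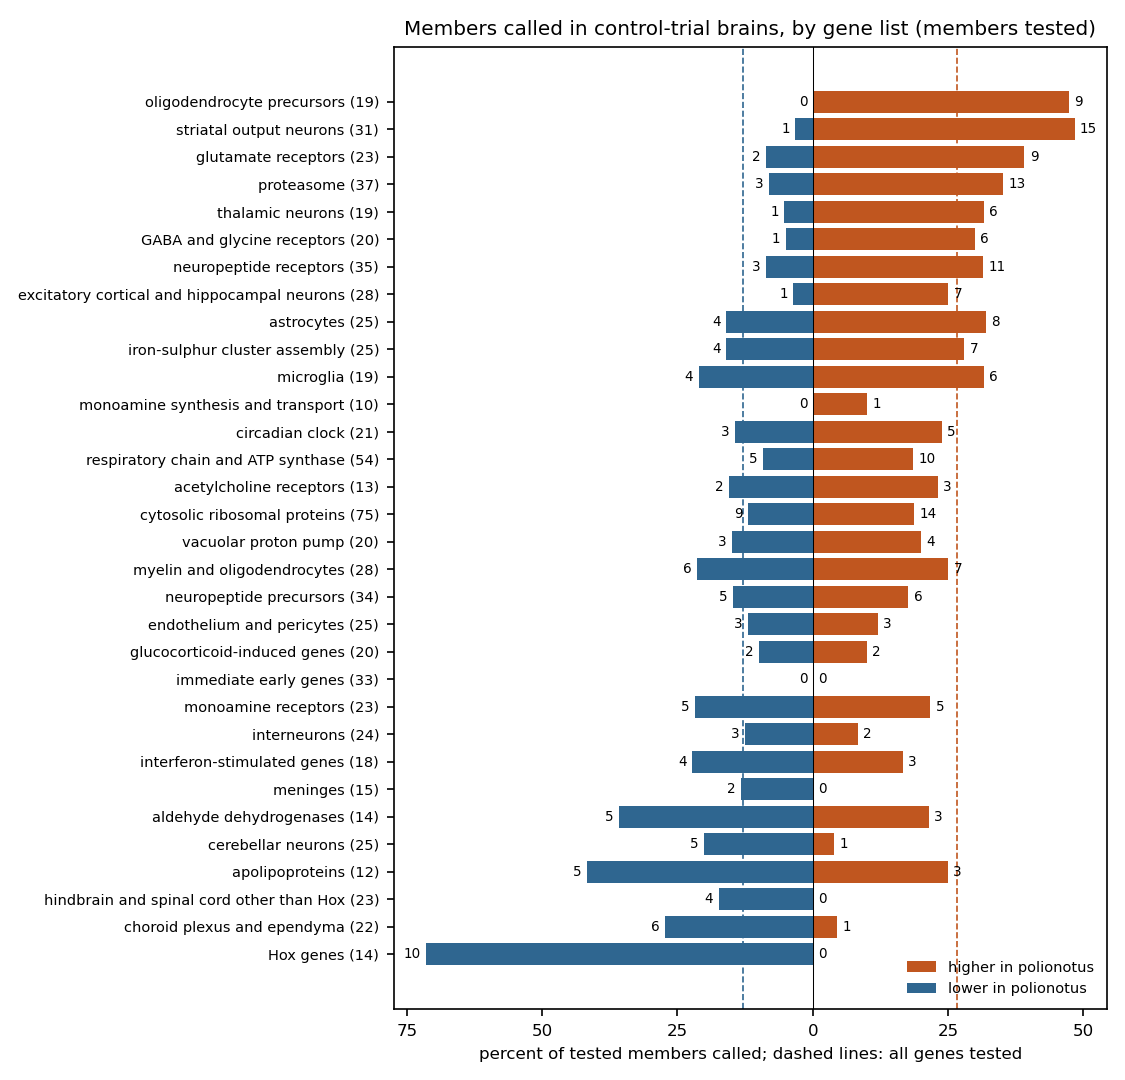
Percentage of tested members called higher (right, orange) or lower (left, blue) in polionotus control brains for each gene list with at least 10 tested members, with the number called at each bar and the number tested in brackets. Dashed lines mark the shares over all genes tested, 26.8% higher and 12.9% lower. Hox genes (10 of 14 lower) lie furthest from them. Lists and members were chosen with earlier results of these data known.

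Oligodendrocyte precursor genes had 9 higher and 0 lower of 19 (8 and 0 with median scaling, 4 and 0 without both low-Hox libraries, 5 and 0 in the burrowing trial). The shares over all genes were 26.8% higher and 12.9% lower, and 20.1% and 19.3% with median scaling. C1ql1, a secreted synapse organiser made by oligodendrocyte precursors, had 34.8, 30.8 and 35.3 TPM in polionotus control brains, against 22.1, 21.2 and 25.9 TPM in maniculatus control brains (adjusted p = 0.00225). Mature myelin genes were mixed, with 7 higher and 6 lower of 28 (5 and 7 with median scaling, 2 and 4 without both low-Hox libraries, 5 and 6 in the burrowing trial). Plekhh1, which is enriched in oligodendrocytes, had 14.9, 15.6 and 17.8 TPM in polionotus control brains, against 4.71, 4.05 and 5.37 TPM in maniculatus control brains (log2 difference 1.58, SE 0.10, adjusted p = 1.37e-06). Mag, the myelin-associated glycoprotein, had 143.5, 170 and 158 TPM in polionotus control brains, against 106.5, 91.8 and 118 TPM in maniculatus control brains (log2 difference 0.58, SE 0.09, adjusted p = 0.000654). Gjc3, the connexin of myelin sheaths, was lower in polionotus control brains, with 4.21, 4.18 and 3.69 TPM, against 8.75, 9.08 and 13.1 TPM in maniculatus control brains (log2 difference -1.15, SE 0.20, adjusted p = 0.00108). All 4 of these genes were called with the same sign in the burrowing trial.

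Astrocyte genes had 8 higher and 4 lower of 25, but 3 and 6 with median scaling 1 and 2 without both low-Hox libraries and 7 and 3 in the burrowing trial, and the higher count was 3, 2, 5 and 2 without maniculatus control library 1, maniculatus control library 2, polionotus control library 1 and polionotus control library 2. Apoe, the lipid carrier that astrocytes secrete, had 4536, 4663 and 4493 TPM in polionotus control brains, against 2425, 2442 and 1631 TPM in maniculatus control brains (log2 difference 1.10, SE 0.19, adjusted p = 0.00114). Gja1, the astrocytic connexin 43, was lower in polionotus control brains, with 199, 185 and 181 TPM, against 274, 251 and 300.5 TPM in maniculatus control brains (log2 difference -0.54, SE 0.08, adjusted p = 0.000342). Aldoc, an abundant glycolytic enzyme of astrocytes, averaged 3072 TPM in polionotus control brains and 3382 TPM in maniculatus control brains and did not pass as deposited (adjusted p = 0.174, and 0.0467 with median scaling).

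Microglial genes likewise moved in both directions, 6 higher and 4 lower of 19 (3 and 3 without both low-Hox libraries, 4 and 4 in the burrowing trial). Trem2, the lipid receptor of microglia, had 31.7, 30.8 and 26.9 TPM in polionotus control brains, against 9.01, 7.59 and 11.3 TPM in maniculatus control brains (log2 difference 1.59, SE 0.17, adjusted p = 4.43e-05). Tmem119, a microglia-specific surface protein, had 40.2, 50.0 and 40.9 TPM in polionotus control brains, against 26.3, 19.5 and 22.1 TPM in maniculatus control brains. Gpr34, a lysophosphatidylserine receptor, was lower, and had 2.59, 2.91 and 2.39 TPM in polionotus control brains, against 5.69, 6.39 and 8.89 TPM in maniculatus control brains (log2 difference -1.12, SE 0.14, adjusted p = 0.000123). P2ry12, which guides microglial processes toward ATP, had 22.0, 20.8 and 21.0 TPM in polionotus control brains, against 32.3, 27.6 and 37.7 TPM in maniculatus control brains (log2 difference -0.58, SE 0.10, adjusted p = 0.00104). These 4 genes kept their calls without both low-Hox libraries. Aif1, a general microglial marker, averaged 49.0 TPM in polionotus control brains and 49.6 TPM in maniculatus control brains (log2 difference -0.01, SE 0.16, adjusted p = 0.972).

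Vascular genes had 3 higher and 3 lower of 25 (3 and 8 with median scaling, 2 and 3 without both low-Hox libraries, 3 and 3 in the burrowing trial, and 6 lower without maniculatus control library 2). Kdr, the endothelial VEGF receptor, and Vwf, the von Willebrand factor, were higher (log2 differences 0.46 and 0.59, limma adjusted p = 0.000922 and 0.00191). Vtn and Rgs5, which mark pericytes, were lower (-0.60 and -0.70, adjusted p = 0.00138 and 0.003). Vwf lost its call with the Hox level as a covariate (adjusted p = 0.0857). In the choroid plexus and ependyma list 1 gene was higher and 6 were lower of 22, with 1 and 1 without both low-Hox libraries and 2 and 2 in the burrowing trial. Without maniculatus control library 2 or polionotus control library 2 there were 2 higher ones. With all 6 libraries the higher one was Slc13a4, a sulphate transporter, with 22.3, 23.9 and 19.96 TPM in polionotus control brains, against 11.97, 9.45 and 12.1 TPM in maniculatus control brains (log2 difference 0.92, SE 0.11, adjusted p = 8.79e-05). Ttr, the transthyretin that choroid plexus makes in bulk, overlapped, with 1805, 1383 and 1288 TPM in polionotus control brains, against 1279, 1433 and 1365 TPM in maniculatus control brains.

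Of the lists for tissues that a dissection can carry along, limma called 0 of 2 blood genes and 0 of 3 pituitary genes (0 of each also at an unadjusted p below 0.05, and 1 pituitary gene lower without maniculatus control library 1). Of 15 meningeal genes 0 were higher and 2 lower. The lower count was 3 without maniculatus control library 1, 1 without maniculatus control library 3 or polionotus control library 2, 0 without both low-Hox libraries (2 at an unadjusted p below 0.05) and 1 in the burrowing trial. Of 3 pineal genes 1 was lower, in both trials and without both low-Hox libraries, and 2 were lower with median scaling. The gene called as deposited was Aanat, which makes the melatonin precursor, with 1.34, 1.23 and 0.781 TPM in polionotus control brains, against 4.47, 4.13 and 4.15 TPM in maniculatus control brains (log2 difference -1.32, SE 0.13, adjusted p = 3.79e-05), and 0.819, 1.18 and 0.981 TPM in polionotus burrowing brains, against 5.19, 7.09 and 4.99 TPM in maniculatus burrowing brains. The species did not overlap in either trial. Of 5 skeletal muscle genes 2 were higher and 1 lower. The lower one, the skeletal actin gene Acta1, kept its call on leaving out a single library only without polionotus control library 3. The higher count was 1 without maniculatus control library 1 or polionotus control library 3. Without both low-Hox libraries limma called 0 and 0 (1 higher at an unadjusted p below 0.05), and in the burrowing trial 1 was higher and 0 were lower.

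Of 33 immediate early genes, which neuronal activity switches on, limma called 0, against 39.6% of all genes tested. At an unadjusted p below 0.05, 4640 of all 14366 genes were higher and 2335 lower, against 1 and 2 immediate early genes. With quantile normalization 2 were called lower and without maniculatus control library 3 there was 1, against 0 without both low-Hox libraries (0 also at an unadjusted p below 0.05) and 0 in the burrowing trial (0 higher and 2 lower at an unadjusted p below 0.05). Arc had 228, 477 and 213 TPM in polionotus control brains, against 747, 309 and 341.5 TPM in maniculatus control brains, and the groups overlapped widely (log2 difference -0.59, SE 0.63, adjusted p = 0.489). Of 20 glucocorticoid-induced genes 2 were higher and 2 lower (1 and 1 without both low-Hox libraries, 5 and 1 in the burrowing trial, and 1 lower without maniculatus control library 3). Sgk1 and Tsc22d3, the most abundant of them and direct targets of the glucocorticoid receptor, had log2 differences of 0.03 and -0.11 and did not pass (adjusted p = 0.937 and 0.531). Lcn2, a siderophore-binding protein, had 17.9, 21.1 and 15.7 TPM in polionotus control brains, against 49.4, 43.4 and 42.6 TPM in maniculatus control brains (log2 difference -1.27, SE 0.14, adjusted p = 8.3e-05).

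Circadian clock genes had 5 higher and 3 lower members of 21 as deposited (2 and 5 with median scaling, 2 and 1 without both low-Hox libraries, 4 and 5 in the burrowing trial). The higher count was 2 or 3 under each left-out library, while Per3, Cry2 and Arntl kept their calls under each of those (Arntl lost it with the Hox level as a covariate, adjusted p = 0.0637). Per3, a period repressor, had 20.4, 20.3 and 20.8 TPM in polionotus control brains, against 12.3, 12.4 and 14.2 TPM in maniculatus control brains (log2 difference 0.63, SE 0.07, adjusted p = 5.55e-05). Cry2, a cryptochrome repressor, had 59.8, 56.4 and 59.7 TPM in polionotus control brains, against 47.2, 48.4 and 49.6 TPM in maniculatus control brains (log2 difference 0.27, SE 0.05, adjusted p = 0.00162). Arntl, an activator of the clock, was lower, and had 5.32, 5.33 and 5.90 TPM in polionotus control brains, against 6.80, 7.04 and 7.37 TPM in maniculatus control brains (log2 difference -0.31, SE 0.06, adjusted p = 0.00316), and Clock, its partner, had a difference of -0.29 (SE 0.06, adjusted p = 0.00373, and 0.0703 without both low-Hox libraries). The sources used here do not give the time of day at collection, and its part was not tested. Dbp, the most strongly cycling output gene of the list, averaged 311.5 TPM in polionotus control brains and 319.5 TPM in maniculatus control brains (adjusted p = 0.878).

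Of 23 glutamate receptor genes 9 were higher and 2 lower (2 and 1 without both low-Hox libraries, 4 and 2 in the burrowing trial, and 1 lower without any 1 of maniculatus control libraries 1 and 2 and polionotus control libraries 1 and 2). Grin1, the subunit common to NMDA receptors, had 259, 299 and 309 TPM in polionotus control brains, against 215, 218 and 204 TPM in maniculatus control brains (log2 difference 0.44, SE 0.07, adjusted p = 0.000752). Grin3a, which lowers the calcium flow of NMDA receptors, had 4.11, 3.91 and 4.23 TPM in polionotus control brains, against 2.77, 2.94 and 2.78 TPM in maniculatus control brains (log2 difference 0.41, SE 0.06, adjusted p = 0.000458). Neither gene overlapped, and both passed in the burrowing trial. GABA and glycine receptors had 6 higher and 1 lower of 20 (4 and 5 with median scaling, 2 and 0 without both low-Hox libraries, 5 and 2 in the burrowing trial, and 0 lower without any 1 of maniculatus control libraries 1 and 3 and polionotus control library 2). Acetylcholine receptors had 3 higher and 2 lower of 13 (2 and 5 with median scaling, 1 and 1 without both low-Hox libraries, 3 and 2 in the burrowing trial). Chrne and Chrnb1, subunits of the muscle-type nicotinic receptor, differed in opposite directions (log2 difference 0.89 for Chrne and -0.40 for Chrnb1, adjusted p = 0.000289 and 0.00259).

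Of 75 cytosolic ribosomal protein genes 14 were higher and 9 lower (12 and 15 with median scaling, 7 and 3 without both low-Hox libraries, 10 and 5 in the burrowing trial, and 4 lower without maniculatus control library 2). Rps29 had 769.8, 839 and 814 TPM in polionotus control brains, against 414, 412 and 373 TPM in maniculatus control brains (log2 difference 1.01, SE 0.07, adjusted p = 1.46e-06). Rpl22l1, a paralog of Rpl22, had 82.9, 79.9 and 80.9 TPM in polionotus control brains, against 117, 119 and 124 TPM in maniculatus control brains (log2 difference -0.56, SE 0.07, adjusted p = 0.000101). Ribosomal protein genes have many near-identical pseudogenes, so these levels are uncertain. Of 54 respiratory chain and ATP synthase genes 10 were higher and 5 lower (6 and 7 with median scaling, 1 and 5 without both low-Hox libraries, 7 and 4 in the burrowing trial, and 6 higher without maniculatus control library 3). Ndufv2, a complex I subunit, had 65.4, 60.5 and 65.6 TPM in polionotus control brains, against 246, 154 and 253 TPM in maniculatus control brains (log2 difference -1.72, SE 0.15, adjusted p = 1.26e-05). Proteasome genes had 13 higher and 3 lower of 37 (6 and 6 with median scaling, 6 and 4 without both low-Hox libraries, 9 and 4 in the burrowing trial, 8 higher without maniculatus control library 1, and 5 lower without polionotus control library 2).

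Psmb5, a catalytic proteasome subunit, had 173, 163 and 174.5 TPM in polionotus control brains, against 289.8, 273 and 279.6 TPM in maniculatus control brains (log2 difference -0.72, SE 0.08, adjusted p = 8.26e-05). Psmb11, its thymus-specific relative, had 31.4, 33.3 and 29.1 TPM in polionotus control brains, against 4.22, 9.87 and 7.76 TPM in maniculatus control brains (log2 difference 2.02, SE 0.29, adjusted p = 0.00036). Of the 37 proteasome genes tested 43.2% were called as deposited, against 39.6% of all genes. The vacuolar proton pump had 4 higher and 3 lower of 20 (3 and 4 with median scaling, 1 and 2 without both low-Hox libraries, 3 and 3 in the burrowing trial). Its subunit gene Atp6v1f had 5.83, 7.503 and 7.06 TPM in polionotus control brains, against 149, 142.5 and 125 TPM in maniculatus control brains (log2 difference -4.17, SE 0.13, adjusted p = 7.56e-09). Every polionotus value lay far below every maniculatus value. Of 25 iron-sulphur assembly genes, Iscu among them, 7 were higher and 4 lower (2 and 2 without both low-Hox libraries, 6 and 4 in the burrowing trial, and 4 higher without maniculatus control library 1 or polionotus control library 3). Isca2, another abundant member, averaged 219 TPM in polionotus control brains and 223 TPM in maniculatus control brains and did not pass (adjusted p = 0.728).

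Glutathione transferases had 3 higher and 2 lower of 7 (4 and 1 without both low-Hox libraries, 4 and 2 in the burrowing trial). The lower count was 1 without maniculatus control library 3 or polionotus control library 2, and 3 without polionotus control library 3. Gstz1, which also degrades tyrosine as maleylacetoacetate isomerase, had 19.5, 19.3 and 18.7 TPM in polionotus control brains, against 8.95, 8.52 and 10.4 TPM in maniculatus control brains (log2 difference 0.97, SE 0.09, adjusted p = 2.66e-05). Gstk1, a mitochondrial and peroxisomal member, had 34.1, 29.8 and 29.6 TPM in polionotus control brains, against 50.3, 50.4 and 65.8 TPM in maniculatus control brains (log2 difference -0.80, SE 0.11, adjusted p = 0.000284). Aldehyde dehydrogenases had 3 higher and 5 lower of 14 (2 and 3 without both low-Hox libraries, 4 and 4 in the burrowing trial). Aldh1l2, of mitochondrial folate metabolism, had 5.09, 6.32 and 5.48 TPM in polionotus control brains, against 1.72, 1.87 and 2.15 TPM in maniculatus control brains (log2 difference 1.18, SE 0.10, adjusted p = 9.54e-06). Aldh3a1, a detoxifying member abundant in cornea, had 4.53, 4.87 and 3.67 TPM in polionotus control brains, against 60.6, 58.5 and 7.58 TPM in maniculatus control brains, of which library 3 was near the polionotus range (adjusted p = 0.00558, and 0.0928 without both low-Hox libraries).

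Apolipoprotein genes had 3 higher and 5 lower of 12 (2 and 2 without both low-Hox libraries, 3 and 5 in the burrowing trial, and 3 lower without polionotus control library 3). Apoc4, Apoc1 and Apoe are neighbours in that order in the RefSeq annotation of a P. maniculatus genome (GCF_049852395.1 HU_Pman_BW_mat_3.1), and differed in sign. Apoc4 had 15.6, 22.6 and 12.1 TPM in polionotus control brains, against 2.01, 2.04 and 2.38 TPM in maniculatus control brains (log2 difference 2.46, SE 0.22, adjusted p = 1.52e-05). Apoc1, which sits between the other two, had 40.9, 43.1 and 53.0 TPM in polionotus control brains, against 278, 274 and 219 TPM in maniculatus control brains (log2 difference -2.47, SE 0.24, adjusted p = 3.2e-05). Apoe was higher, as given above. Apoa4, a lipoprotein component of gut and plasma, had 0.254 TPM, was listed at 0 and had 0.122 TPM in polionotus control libraries 1, 2 and 3, against 7.74, 22.3 and 7.84 TPM in maniculatus control brains. Interferon-stimulated genes had 3 higher and 4 lower of 18 (1 and 2 without both low-Hox libraries, 0 and 4 in the burrowing trial). The higher count was 1 without any 1 of maniculatus control libraries 1 and 2 and polionotus control libraries 1 and 3, and the lower count was 2 without maniculatus control library 3 or polionotus control library 2. Eif2ak2, the kinase PKR that senses double-stranded RNA, had 6.26, 4.55 and 6.80 TPM in polionotus control brains, against 18.4, 19.2 and 23.9 TPM in maniculatus control brains (log2 difference -1.65, SE 0.14, adjusted p = 1.03e-05).

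The species difference was measured again in other animals, those of the burrowing trial. Both contrasts came from the same fit, which shares each gene's estimate of spread, so the calls of the trials are not independent. In the burrowing trial 4901 genes (34.1%) were called. Of these 4035 were also called in the control trial, which is 70.8% of the control calls and 82.3% of the burrowing calls. The sign was the same for 4034 of the 4035. Of the 421 genes called more than 1 higher in the control trial 383 were called higher in the burrowing trial, against 20.02% of all genes. Of the 295 called more than 1 lower 273 were called lower there, against 14.1%. Across the 14366 genes the log2 differences of the trials had Pearson's r = 0.924, as a description, since the genes of a library share their source. A test of the difference between trials called 0 genes with limma (0.0%), and 415 had an unadjusted p below 0.05. The gene with the smallest p was Ptges, a prostaglandin E synthase, with 0.629, 0.331 and 0.648 TPM in polionotus control brains, against 2.55, 2.61 and 1.23 TPM in maniculatus control brains, and with 0.945, 0.592 and 0.752 TPM in polionotus burrowing brains, against 10.8, 10.3 and 10.2 TPM in maniculatus burrowing brains (adjusted p = 0.296). The tested Hox genes had differences between trials of -1.82 to -0.40, all negative, and none passed (adjusted p = 0.992 each).

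**Figure D4:**
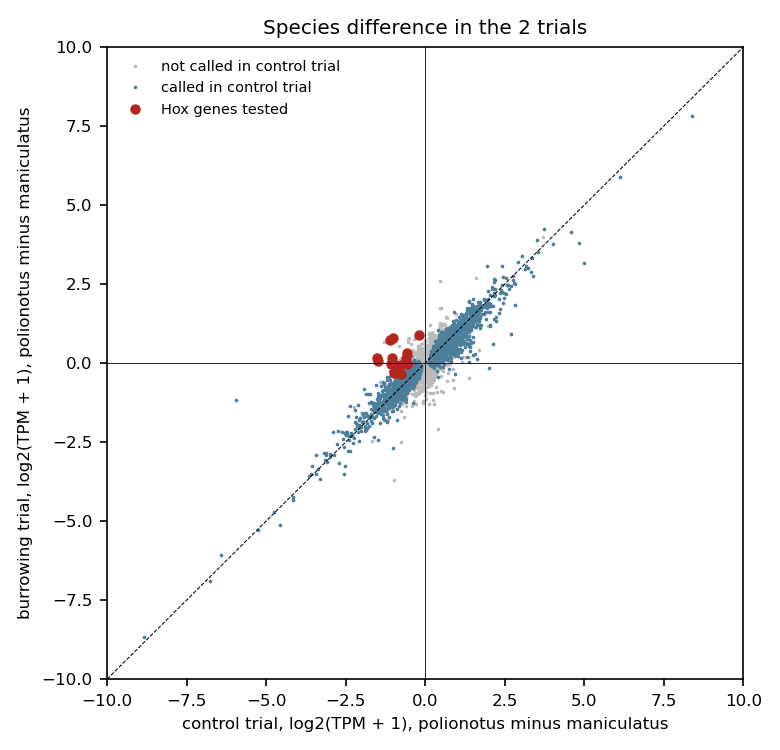
Log2 difference, polionotus minus maniculatus, of each tested gene in the control trial (x axis) and the burrowing trial (y axis), on log2(TPM + 1), with genes called in the control trial in blue and Hox genes in red. Points follow the dashed line of equality (r = 0.924), and the Hox genes lie left of it.

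In the F1 control hybrids reads were assigned to parental alleles, so each animal compares the species' alleles within the same brain. The labels give the same cross, maniculatus x polionotus, for every F1 animal and name no reciprocal cross. The species of an allele and the parent it came from therefore cannot be told apart. Allele-assigned counts were 11415175, 12595542 and 53906964 per animal, with 52.6% to 52.8% on the polionotus allele. A paired count test (edgeR), fitted to the control and burrowing F1 hybrids together, called 4471 of 11928 genes (37.5%) unequal in the control hybrids. Fitted to the control hybrids alone, the test called 3999 of 11926 genes, of which 3626 were also called in the joint fit. In the joint fit, 9957 autosomal genes were also tested in the parents. Among these the polionotus allele was higher for 2296 (23.1%) and lower for 1400 (14.1%). That split depended on scaling too, since with TMM factors over the allele columns the polionotus allele was higher for 1831 (18.4%) and lower for 2051 (20.6%), and the median allelic log2 ratio was -0.02 in place of 0.09. Of 2747 of these called higher in polionotus control brains, 1039 (37.8%) had a higher polionotus allele and 136 a lower one. Of 1168 called lower, 463 (39.6%) had a lower polionotus allele and 119 a higher one. With TMM factors these counts were 818 (29.8%) and 215, and 574 (49.1%) and 97. For species differences over 1 log2 the counts were 100 of 152 higher (3 opposite) and 41 of 86 lower (9 opposite), and with TMM factors 96 higher (3 opposite) and 44 lower (7 opposite). Across the 9957 genes the parental log2 difference and the allelic log2 ratio had Pearson's r = 0.302, again as a description. On the X, 32 tested genes with hybrid counts were left out because males carry 1 X.

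Named genes fell on both sides. The polionotus allele held 95.2% ± 2.39 of the counts of Krt20, a keratin gene, in F1 control brains, and 87.5% ± 2.35 for Chi3l1, 88.0% ± 1.59 for Gstz1, 84.5% ± 0.365 for Slc13a4 and 77.6% ± 9.60 for Oxtr (SD, n = 3 animals each), all called in the direction of the species difference. Tnnt1 had 96.5% ± 0.889 on the polionotus allele, Trem2 70.6% ± 4.03, Per3 66.5% ± 1.49 and Cry2 71.4% ± 0.912, and Shbg, lower in polionotus brains, had 20.3% ± 2.33. Trem2 lost its call without F1 animal 1 (adjusted p = 0.0605) or 2 (0.0563). By contrast Drd1 had 50.9% ± 0.813 (edgeR adjusted p = 0.624), Foxp1 50.7% ± 1.51 (adjusted p = 0.593), Mag 50.9% ± 1.69 (adjusted p = 0.496), Arntl 48.0% ± 0.307 (adjusted p = 0.087) and Clock 48.7% ± 0.0822 (adjusted p = 0.157) on the polionotus allele. With TMM factors Arntl and Clock were called with a lower polionotus allele (adjusted p = 0.0153 and 0.0149). Crhr1 had 59.4% ± 1.78 and did not pass (adjusted p = 0.073), though it did with DESeq2 (0.0397), when only the control hybrids were fitted (0.0134) or with no replicate block (0.0421). Avp had 39.3% ± 14.3, with a spread between animals too wide to pass (adjusted p = 0.205).

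Some alleles differed in the direction opposite to the parents, with calls that did not hold under every alternative. Apoc1, lower in polionotus brains, had 64.6% ± 8.83 of its hybrid counts on the polionotus allele (adjusted p = 0.0432), and Apoe, higher in polionotus brains, had 47.7% ± 0.378 (adjusted p = 0.032). Apoc4, higher in polionotus brains, had 70.8% ± 8.35 on the polionotus allele, in the direction of the parents (adjusted p = 0.014). Ppp1r17, lower in polionotus brains, had 65.7% ± 6.86 on the polionotus allele (adjusted p = 0.0232). On leaving out single animals the adjusted p was 0.158 and 0.190 for Apoc1 without animal 1 and 3, 0.0982, 0.0938 and 0.126 for Apoe without animal 1, 2 and 3, 0.069 and 0.0883 for Apoc4 without animal 2 and 3, and 0.0714 and 0.0792 for Ppp1r17 without animal 1 and 2. Apoc1 also lost its call with TMM factors (edgeR adjusted p = 0.0668). With only the control hybrids fitted, Apoc1 (0.0809) and Ppp1r17 (0.0597) lost their calls. With no replicate block Apoe (0.913) and Apoc4 (0.0986) lost theirs. Atp6v1f, with a log2 difference of -4.17 in the parents, had 54.0% ± 5.72 on the polionotus allele and did not pass (adjusted p = 0.637). Nts, the neurotensin precursor, was the reverse case, with 12.1, 13.2 and 14.7 TPM in polionotus control brains, against 14.6, 12.7 and 12.8 TPM in maniculatus control brains, and 86.7% ± 1.17 of hybrid counts on the polionotus allele (adjusted p = 0.0116, and 0.0536 to 0.0609 on leaving out an animal). The sources used here do not say how a read was assigned to an allele, and the part of that step in these shares was not tested.

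**Figure D5:**
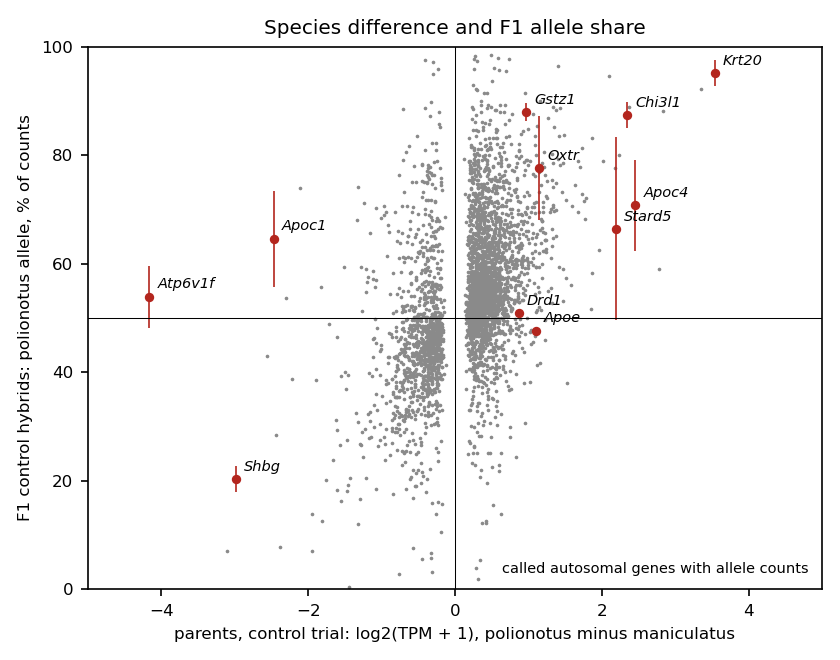
Share of allele-assigned counts on the polionotus allele in F1 control hybrids (y axis, mean of 3 animals) against the parental log2 difference in control-trial brains (x axis) for autosomal genes called in the parents, with labelled genes in red and SD as bars. Krt20 (95.2%) and Shbg (20.3%) lie in the direction of the species difference, whereas Apoc1 (64.6%) and Atp6v1f (54.0%) do not.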

How the data were processed

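Parental expression was deposited as TPM per gene for 12 libraries, and hybrid expression as whole-number counts per gene and allele, both made by the authors. Reads were aligned with STAR 2.4.2a, per the submitters' processing notes. The sources used here name no genome build, annotation, TPM tool or method of allele assignment. The 1 row without a name (0.789% to 2.48% of the TPM of a library) was left out. Names of 27 rows had become dates, and these were tested but not named. TPM keep no depth.

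Genes averaging at least 1 TPM were tested with limma 3.58.1 (R 4.3.3) on log2(TPM + 1), with 1 mean per group over the 12 parental libraries, a mean trend, two-sided tests and Benjamini-Hochberg adjustment over all genes. Allele counts with a mean of at least 20 per animal were tested with the edgeR 4.0.16 quasi-likelihood test with the animal as a block. That fit held the control and burrowing F1 hybrids together. A fit of the control hybrids alone and DESeq2 1.42.0 were alternatives. Both were tested on simulated data. P-values measure the spread between these libraries.

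Lists came from general knowledge of rodent brain genes, and members and lists were chosen with earlier results of these data known. Named genes were, per direction, the 10 largest called changes of at least 20 TPM without overlap, the called members with the smallest p and the most abundant members of each list, every tested Hox gene, neuropeptide precursors, and the genes with the smallest p between trials. Where a symbol was sought in the RefSeq table, 84.7% matched. Alternatives were another pseudocount, filter, scaling, model or trend, left-out libraries and a Hox covariate.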

Additional observations from a re-analysis of the deposited data

How the results depend on the processing

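The count of 5696 genes called in the control trial was 2733 without polionotus control libraries 2 and 3 and 2693 (of 14352 tested) with the mean Hox level as a covariate. It was 4511 to 5314 on leaving out single libraries. With only the control-trial libraries fitted it was 4463 of 14366, with 3002 higher and 1461 lower. The burrowing-trial count of 4901 was 3763 to 4116 on leaving out single libraries. The difference between trials had 0 calls by limma, 1 with a pseudocount of 5 or with no expression filter, and 0 to 2 on leaving out single libraries. The allelic count of 4471 in control hybrids was 2865 to 2997 on leaving out an animal and 2707 with no replicate block, and it split into 2244 higher and 2435 lower with TMM factors, against 2771 and 1700 with library sums. The Hox level of maniculatus control brains averaged 54.8 TPM, and 46.3 TPM without the Hox gene of the largest mean. Without polionotus control libraries 2 and 3, Hoxa5 (0.019, limma adjusted p = 0.973) and Hoxb8 (0.0016, adjusted p = 0.996) reversed sign on the log2 scale. The naming rule gave 245 genes, of which 165 were called. Of these 64 lost their call under that alternative, as did 55 of the 155 that could be tested with the Hox covariate, against 3 with median scaling and 4 with quantile normalization. For these changes the cause was not tested beyond the smaller sample that leaving out libraries implies.

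With the replicate number as a block the control count was 5927. Deviations of same-numbered libraries of the species from their group means had r of -0.119 to 0.0989. With 3 libraries a group the deviations cancel out within a group. These values therefore cannot decide whether same-numbered libraries shared a batch. Fitting only the groups compared is the same fit for the difference between trials and gave no separate value. TPM keep no depth, so differences of genes near 1 TPM are limited by an unknown number of reads, and 3 libraries a side limit every p-value.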

Other observations

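On the X chromosome 453 genes were tested in the parents. Of these 93 were higher and 52 lower in polionotus control brains, against 26.8% and 12.9% of all genes tested.

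On the second principal component of the 12 parental libraries, which held 7.47% of the variance, polionotus control library 2 (-12.6), maniculatus control library 3 (-20.5) and polionotus burrowing library 3 (-15.5) stood apart. Of these, only polionotus control library 2 had a low Hox sum (8.15 TPM, against 63.3 and 63.2 TPM in maniculatus control library 3 and polionotus burrowing library 3).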
